A study of Mus musculus with 9 samples.

Results

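The SLC25 family, the carriers that move metabolites across the inner mitochondrial membrane, was followed in mouse kidney after cisplatin. Its members were taken by name: every deposited gene whose GENCODE M21 symbol is Slc25a followed by digits alone, which gave 47 of 55385 genes, with no expression value used in the choice. Relatives that carry other symbols, such as Ucp2, fall outside it. Of these 47, 39 reached 1 FPKM in at least 3 of 9 libraries and were tested, and 8 did not. FPKM is a fragment count divided by transcript length and library size, so levels of different genes can be set side by side within a library. The libraries are bulk RNA sequencing of whole kidney from the C57BL/6 strain, with 3 biological repeats in each of 3 groups. The groups are sham mice given saline, mice 3 days after cisplatin at 20 mg/kg, and mice 7 days after the same dose, all injected into the peritoneum. Cisplatin is a platinum-based cancer drug that binds DNA and damages tubule cells. The labels give no age or sex, do not say whether libraries are from single animals, and describe a sham group with no sampling day of its own. P-values therefore measure the spread between these libraries only.

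The inner mitochondrial membrane is closed to most charged metabolites, and SLC25 proteins, built from repeats of a common membrane-spanning unit, pass them by swapping one substrate for another or for protons. They export ATP against ADP, import phosphate, run the malate-aspartate and citrate shuttles, and bring in carnitine esters, amino acids, iron, glutathione and cofactors. The proximal tubule, which reabsorbs most of the filtrate, lives mainly on oxidation in its mitochondria and so depends on this exchange.

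Promoters are printed for 2 pairs of sister genes, the calcium-regulated ATP-Mg/phosphate carriers Slc25a24 and Slc25a23 and the ADP/ATP carriers Slc25a5 and Slc25a4, because they hold the carrier with the largest rise, Slc25a24, and the most abundant carrier, Slc25a5. Each is 300 bases around the RefSeq transcript start (GRCm38.p6), given 5′ to 3′ on the gene's strand. They lie at chr3:109122899-109123198 (plus strand), chr17:57059814-57060113 (minus strand), chrX:36795347-36795646 (plus strand) and chr8:46211013-46211312 (minus strand), in that order. Capitals mark the single motif match found in them, an ETS core in Slc25a4 that begins at position -130 from the start.
Slc25a24: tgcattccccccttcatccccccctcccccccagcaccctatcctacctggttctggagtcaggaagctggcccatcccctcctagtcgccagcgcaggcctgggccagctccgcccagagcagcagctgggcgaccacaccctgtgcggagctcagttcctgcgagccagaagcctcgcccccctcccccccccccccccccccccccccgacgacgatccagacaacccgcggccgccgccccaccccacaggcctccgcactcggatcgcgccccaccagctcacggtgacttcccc
Slc25a23: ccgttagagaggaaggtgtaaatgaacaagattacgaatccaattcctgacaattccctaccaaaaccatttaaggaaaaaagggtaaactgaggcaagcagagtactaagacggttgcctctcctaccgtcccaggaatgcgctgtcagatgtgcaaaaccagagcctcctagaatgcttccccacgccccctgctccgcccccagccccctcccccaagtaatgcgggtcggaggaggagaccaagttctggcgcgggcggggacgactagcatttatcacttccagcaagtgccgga
Slc25a5: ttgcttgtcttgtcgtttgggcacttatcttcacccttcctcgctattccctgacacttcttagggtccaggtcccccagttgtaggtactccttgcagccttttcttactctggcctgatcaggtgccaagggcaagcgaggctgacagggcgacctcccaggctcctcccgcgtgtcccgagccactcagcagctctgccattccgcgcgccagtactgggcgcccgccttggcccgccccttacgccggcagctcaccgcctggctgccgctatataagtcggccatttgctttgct
Slc25a4: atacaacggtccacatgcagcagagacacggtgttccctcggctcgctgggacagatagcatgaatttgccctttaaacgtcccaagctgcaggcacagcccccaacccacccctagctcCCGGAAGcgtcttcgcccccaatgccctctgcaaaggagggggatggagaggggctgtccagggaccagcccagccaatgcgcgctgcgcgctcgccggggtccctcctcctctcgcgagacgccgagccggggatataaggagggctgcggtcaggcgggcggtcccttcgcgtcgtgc
RefSeq promoters were found for 36 of the 47 carriers, 46 sequences in all because some have several starts. Both strands were searched for 4 motifs. The NRF1 motif, GCGC and TGCGC with any 1 base between, was in 2 of the 46 (4.35%) and in 4.6% of all 32851 promoters of that length. AAGGTCA, part of the site of the estrogen-related receptors, was in 1 (2.17%) and in 4.72% of all promoters. CACGTG, the E-box, was in 8 (17.4%) against 7.15% of all, and CCGGAAG, the ETS core, in 7 (15.2%) against 8.86% of all. None of these motifs contains another. These counts describe letters only, and 2 of the E-box matches are overlapping windows of a single gene, Slc25a14.

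The kidney label was checked on segment markers. The 5 proximal tubule markers Slc34a1, Lrp2, Slc5a2, Slc22a6 and Slc13a3 summed to 718 to 1580 FPKM in sham kidneys, 41.2 to 118 FPKM at day 3 and 867 to 1082 FPKM at day 7, and none was listed at 0 in a whole group. All 5 fell at day 3 against sham, and none was called at day 7 against sham. Markers of the thick ascending limb (2 of 2), the distal tubule (2 of 2) and the collecting duct (2 of 3) also fell at day 3. In whole-tissue RNA, fewer tubule cells and less of a transcript in each cell cannot be told apart, for any carrier below. The 3 neutrophil markers summed to 21.5 to 82.9 FPKM at day 3 and 2.26 to 12.3 FPKM in sham kidneys, and both that were tested rose. The 3 macrophage markers summed to 91.4 to 119 FPKM at day 3 and 15.5 to 18.4 FPKM in sham kidneys. Among them Cd68 rose, Csf1r fell, and Adgre1, below the filter, stood at 0.25 to 0.75 FPKM at day 3 and 0.68 to 1.07 FPKM in sham. Skeletal muscle markers were at or near 0 in every library, with a sum of at most 0.17 FPKM. The 2 liver markers, Alb and Apoa2, were not absent and varied widely between day 3 libraries. They summed to 10.4 to 14.5 FPKM in sham kidneys, 2.02 to 143 FPKM at day 3 and 24.1 to 27.8 FPKM at day 7. Neither was called in any comparison, and their source was not tested. Libraries of a group correlated at 0.942 to 0.980 on the log2(FPKM + 1) scale over all tested genes. Sham library 1 and day 3 library 1 stood most apart: 10 tested carriers in each lay over 0.5 log2 units from the other libraries of the group, against 0 to 6 in the other libraries. Read depth is unknown, since no counts were used.

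At day 3 against sham the carriers moved mainly down. In the limma fit over 13718 genes with Benjamini-Hochberg adjustment, 22 of the 39 tested carriers were called at an adjusted p under 0.05 (56.4%), against 59.9% of all genes. The balance of directions differed from that of all genes: 16 carriers were lower (41%, against 20.6% of all genes) and 6 were higher (15.4%, against 39.3%). Of these, 8 fell at least 2-fold (9.36% of all genes did) and 3 rose at least 2-fold (17.1% of all genes did). The median log2 fold change was -0.39 over the carriers and 0.25 over all tested genes. When FPKM was rescaled by median of ratios, which brings the all-gene median to 0.03, 5 carriers were higher and 20 lower, beside 29.8% of all genes higher and 28.8% lower under that scaling. The lower calls went with the fall of the tubule markers given above, whose part in them was not tested.

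A week after cisplatin 16 carriers were called against sham (41%, against 29.7% of all genes). Of them 11 were higher (28.2%, against 19.3% of all genes) and 5 lower (12.8%, against 10.4%), with 1 carrier past 2-fold in each direction (2.81% of all genes up and 1.3% down). The median was 0.09 for the carriers and 0.06 for all genes. Median-of-ratios scaling gave 9 higher and 7 lower, where 16.4% of all genes were higher and 16.2% lower. Scaling to the nuclear-encoded total gave 12 higher and 1 lower, where 26.5% of all genes were higher and 4.75% lower, so the balance of the carriers and that of all genes shifted the same way. Of these calls, 1 of 16 was kept in every alternative run, against 18 of 22 at day 3 against sham and 18 of 26 at day 7 against day 3. Removing trends with GC content and length left 3 calls, Slc25a4, Slc25a5 and Slc25a46, while 856 of 13707 genes were called (6.24%). The count was 9 without sham library 2, 8 without day 7 library 1, 8 without day 7 library 2 and 7 without day 7 library 3. The share called over all genes fell in the same fits, to 18.2%, 19.5%, 19.7% and 19.1%.

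Between the cisplatin groups, day 7 against day 3, 26 carriers were called (66.7%, against 55.4% of all genes), 18 higher (46.2%, against 21.7%) and 8 lower (20.5%, against 33.7%). At least 2-fold, 9 were higher (9.54% of all genes) and 2 lower (14.4% of all genes), and the median was 0.21 for the carriers against -0.16 for all genes. The 3 comparisons share libraries, so each is described by its own values. Leaving out both libraries that stood apart, sham 1 and day 3 library 1, gave 29 calls at day 3 against sham (9 higher, 20 lower), 20 at day 7 against sham (12 higher, 8 lower) and 28 at day 7 against day 3 (20 higher, 8 lower). Over all genes, 61.3%, 36.9% and 59.6% were called in that fit.

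**Figure D1:**
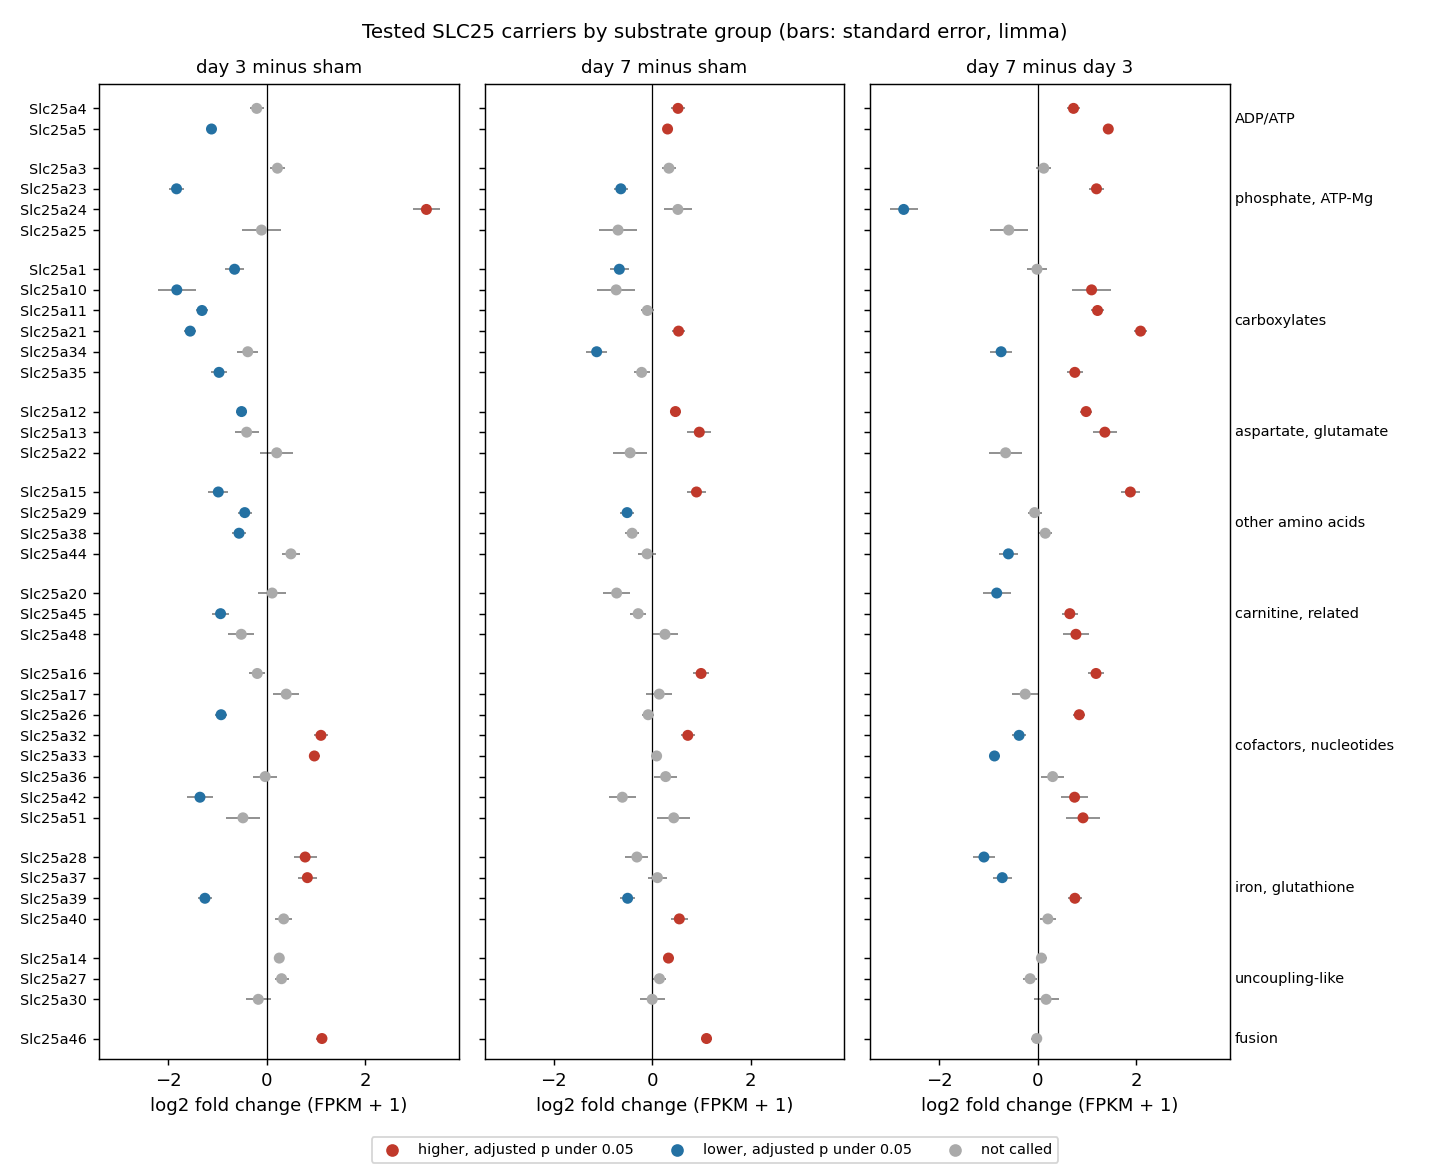
Log2 fold change on the log2(FPKM + 1) scale for 38 of the 39 tested carriers (one line each, grouped by substrate), for day 3 minus sham, day 7 minus sham and day 7 minus day 3. Bars are standard errors from limma, red points are higher and blue points lower at an adjusted p under 0.05, grey points were not called. At day 3 against sham 15 points are blue and 6 red, with Slc25a24 alone beyond 3.

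The summed level of all 47 carriers was 1131.66, 1150.82 and 1150.11 FPKM in the sham libraries, 853.52, 722.58 and 668.32 FPKM at day 3, and 1227.18, 1209.47 and 1245.77 FPKM at day 7. The 3 groups did not overlap, with day 3 lowest and day 7 highest. As a share of all nuclear-encoded FPKM the carriers took 0.305% to 0.331% in sham kidneys, 0.195% to 0.278% at day 3 and 0.383% to 0.399% at day 7. A single gene, Slc25a5, held 34.0% to 34.6% of the carrier FPKM in sham kidneys, 21.3% to 26.5% at day 3 and 39.5% to 39.8% at day 7. Sums over the members were not tested. Transcripts of mitochondrial DNA took 25.6% to 27.3% of FPKM in sham kidneys, 27.1% to 31.8% at day 3 and 31.7% to 32.6% at day 7.

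The ADP/ATP carriers, which hand mitochondrial ATP to the cytosol, are Slc25a5 (chromosome X, 36795651 to 36798807, plus strand), the form of dividing and most other cells, and Slc25a4 (chromosome 8, 46206797 to 46211284, minus strand), the form that dominates in heart and muscle. Slc25a5 stood at 385.88, 391.79 and 398.05 FPKM in sham kidneys, 182.06, 191.36 and 165.79 FPKM at day 3, and 488.17, 478.32 and 493.35 FPKM at day 7. The groups were well apart, with every day 3 library below and every day 7 library above all sham libraries. It fell at day 3 against sham by 1.12 ± 0.10 on the log2(FPKM + 1) scale, where ± gives the standard error here and below (limma adjusted p = 3.29e-05), and was higher at day 7 than at day 3 by 1.43 ± 0.10 (limma adjusted p = 1.27e-05). It was higher at day 7 than in sham by 0.31 ± 0.10 (limma adjusted p = 0.0424). That last call was lost when any sham or day 7 library, or day 3 library 2, was left out (limma adjusted p 0.0309 to 0.125 over the 9 fits that each leave out 1 library). It was also lost with median-of-ratios scaling, where the value was 0.20 (limma adjusted p = 0.233), with no filter (limma adjusted p = 0.102) and with the replicate number as a block (limma adjusted p = 0.0713), and the value was 0.58 with quantile normalization.

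Slc25a4 was at 74.23, 74.51 and 69.66 FPKM in sham kidneys, 77.78, 58.17 and 55.17 FPKM at day 3, and 100.57, 111.73 and 103.03 FPKM at day 7. Day 7 was above all other libraries, while day 3 and sham overlapped. Day 3 against sham was not called (-0.21 ± 0.14, limma adjusted p = 0.227), but it was called lower with median-of-ratios scaling (-0.50, limma adjusted p = 0.00704) and without day 3 library 1 (-0.36, limma adjusted p = 0.015). Slc25a4 was higher at day 7 than in sham by 0.52 ± 0.14 (limma adjusted p = 0.0222) and than at day 3 by 0.73 ± 0.14 (limma adjusted p = 0.00209). The call against sham was lost without sham library 2 or 3 or any day 7 library (limma adjusted p 0.0041 to 0.0739 over the leave-one-out fits). Per length, Slc25a5 was thus the more abundant form everywhere, but by unequal ratios: 5.20, 5.26 and 5.71 in sham kidneys, 2.34, 3.29 and 3.01 at day 3, and 4.85, 4.28 and 4.79 at day 7. The day 3 ratios lay below all others; the exact two-sided permutation test gave p = 0.1 for each pair of groups (adjusted p = 0.257 over 18 such ratio tests), the smallest that 3 against 3 libraries allow. The third ADP/ATP carrier, Slc25a31, known from testis, reached at most 0.07 FPKM. A processed pseudogene, Slc25a5-ps, stood at 0.02 to 0.18 FPKM.

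**Figure D2:**
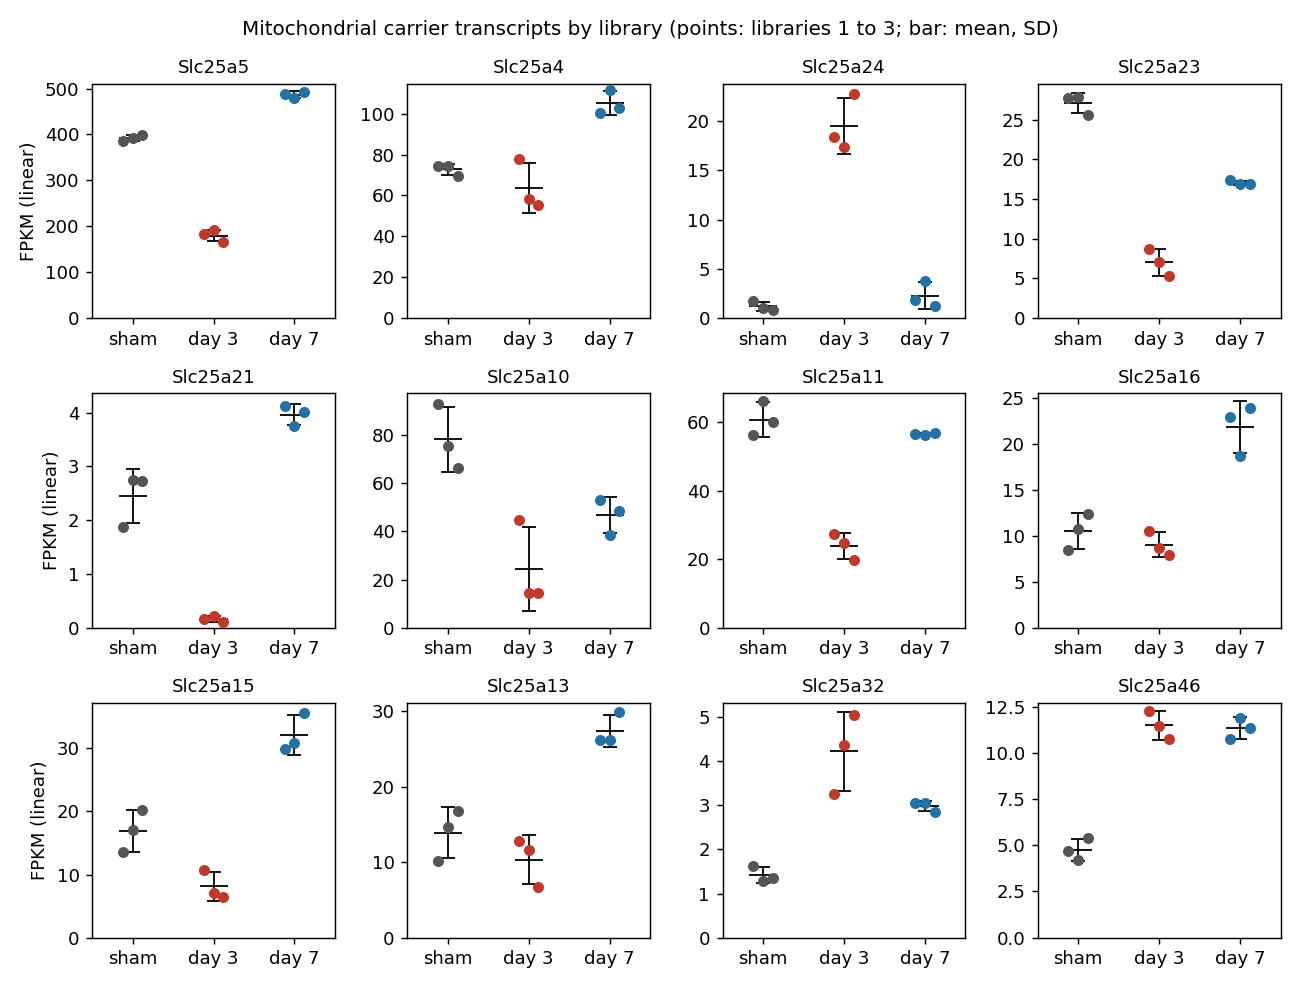
FPKM (linear axes from 0) of 12 carriers in each library, as points for libraries 1 to 3 of sham, day 3 and day 7, with the mean and SD of each group in black. Slc25a5, Slc25a23, Slc25a21 and Slc25a11 dip at day 3, Slc25a24 peaks there at 17.32 to 22.70 FPKM, and Slc25a46 is raised in both cisplatin groups.

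The ATP-Mg/phosphate carriers, which adjust the adenine nucleotide pool of the matrix and are switched by cytosolic calcium, moved in opposite directions at day 3. Slc25a24 (chromosome 3, 109123149 to 109168457, plus strand) had 1.72, 1 and 0.84 FPKM in sham kidneys, 18.36, 17.32 and 22.70 FPKM at day 3, and 1.84, 3.80 and 1.17 FPKM at day 7. All 3 day 3 libraries stood far above the other 6, and day 7 overlapped sham. It rose at day 3 against sham by 3.24 ± 0.28 (limma adjusted p = 3.14e-05), the largest rise of any carrier, and was lower at day 7 than at day 3, with a log2 fold change of -2.72 ± 0.28 (limma adjusted p = 9.07e-05). It was not called at day 7 against sham (0.52 ± 0.28, limma adjusted p = 0.194). The rise went with the higher neutrophil and macrophage marker sums given above. Of the macrophage markers, Cd68 rose, Csf1r fell, and Adgre1 was lower than in sham on average. The part of either cell type in the rise of Slc25a24 was not tested.

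Slc25a23 (chromosome 17, 57043711 to 57059863, minus strand) had 27.78, 27.93 and 25.60 FPKM in sham kidneys, 8.64, 7.03 and 5.34 FPKM at day 3, and 17.35, 16.96 and 16.87 FPKM at day 7. The groups did not overlap, and day 7 lay between day 3 and sham. It fell by 1.83 ± 0.15 at day 3 against sham (limma adjusted p = 2.34e-05), was lower at day 7 than in sham (-0.64 ± 0.15, limma adjusted p = 0.0137), and was higher at day 7 than at day 3 (1.19 ± 0.15, limma adjusted p = 0.000218). The day 7 call against sham was lost with nuclear-total scaling and with GC content and length removed. Slc25a25, the remaining sister of the calcium-regulated group above the filter, was not called in any comparison, and its sham libraries alone ranged from 5.75 to 21.17 FPKM. Without sham library 2 it was called lower at day 7 against sham (-1.18, limma adjusted p = 0.0187). The level ratio of Slc25a24 to Slc25a25 was 0.08, 0.17 and 0.06 in sham kidneys, 1.42, 1.76 and 2.01 at day 3, and 0.20, 0.71 and 0.15 at day 7, so that Slc25a24 was the more abundant of the pair at day 3 only (exact two-sided permutation p = 0.1 for day 3 against sham). Over the 6 pairs and 18 such ratio tests, the smallest adjusted p was 0.257. Slc25a41 and Slc25a54 of this group reached 0.03 FPKM and 0. The phosphate carrier Slc25a3 (chromosome 10, 91116574 to 91124059, minus strand), which feeds ATP synthase, had 62.20, 87.13 and 89.79 FPKM in sham kidneys, 90.29, 95.85 and 88.41 FPKM at day 3, and 91.94, 104.71 and 103.24 FPKM at day 7. Day 3 overlapped both other groups, day 7 lay above sham, and it was not called in any comparison, with log2 fold changes of 0.21, 0.34 and 0.12. Day 7 against sham was called higher with quantile normalization (0.49, limma adjusted p = 0.0317) and nuclear-total scaling (0.55, limma adjusted p = 0.0384), and the value was -0.09 with GC content and length removed.

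The group placed with the carboxylate carriers held 6 tested genes, among them Slc25a34 and Slc25a35, which have no established substrate. Of the 6, 5 fell at day 3 against sham (83.3%, against 20.6% of all genes), Slc25a35 among them. None rose (against 39.3% of all genes), and the median log2 fold change was -1.14. Slc25a10 (chromosome 11, 120491840 to 120499187, plus strand) exchanges malate and succinate for phosphate. It had 92.80, 75.16 and 66.27 FPKM in sham kidneys, 44.59, 14.40 and 14.34 FPKM at day 3, and 53.04, 38.48 and 48.25 FPKM at day 7. Day 3 library 1 stood at the level of the day 7 libraries, and the other day 3 libraries were the lowest of all. It fell at day 3 against sham by 1.83 ± 0.39 (limma adjusted p = 0.00332). Without day 3 library 1 the log2 fold change was -2.35. At day 7 every library lay below every sham library, but the difference was not called (-0.73, limma adjusted p = 0.187). Slc25a10 was called lower there with the 6 libraries of the comparison alone (limma adjusted p = 0.0243) and without day 3 library 1 (limma adjusted p = 0.0115). It was higher at day 7 than at day 3 by 1.10 ± 0.39 (limma adjusted p = 0.0387), a call lost without sham library 2, day 3 library 2 or 3, or any day 7 library (limma adjusted p 0.000285 to 0.132 over the leave-one-out fits), with no filter, or with the 6 libraries of the comparison alone.

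Slc25a11 (chromosome 11, 70644196 to 70647479, minus strand), the oxoglutarate-malate arm of the malate-aspartate shuttle, had 56.15, 66.08 and 60.14 FPKM in sham kidneys, 27.31, 24.65 and 19.93 FPKM at day 3, and 56.51, 56.38 and 56.76 FPKM at day 7. Day 3 was lowest with no overlap, and day 7 lay within the sham range. It fell by 1.32 ± 0.13 at day 3 against sham (limma adjusted p = 5.55e-05) and was higher at day 7 than at day 3 by 1.22 ± 0.13 (limma adjusted p = 0.000101). Its exons share 8.92% of their bases with Rnf167 on the opposite strand, which averaged 15.2, 9.51 and 8.73 FPKM in sham kidneys, day 3 and day 7, and the strand setting of the deposited values is not given in the sources used here.

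Slc25a21 (chromosome 12, 56712634 to 57197472, minus strand) carries oxoadipate, an intermediate of lysine and tryptophan breakdown. It was at 1.88, 2.74 and 2.73 FPKM in sham kidneys, 0.17, 0.22 and 0.11 FPKM at day 3, and 4.12, 3.75 and 4.02 FPKM at day 7. Day 3 was close to 0 in all libraries, and day 7 was above all sham libraries. It fell by 1.55 ± 0.13 at day 3 against sham (limma adjusted p = 2.48e-05), a size that the pseudocount of 1 understates at this level. It was higher at day 7 than at day 3 by 2.09 ± 0.13 (limma adjusted p = 8.08e-06) and than in sham by 0.53 ± 0.13 (limma adjusted p = 0.0153). The call against sham was lost with quantile normalization, with GC content and length removed, and without day 7 library 1 or 3 (limma adjusted p 0.0168 to 0.0538 over the leave-one-out fits).

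The citrate carrier Slc25a1 fell at both times, by 0.65 ± 0.19 at day 3 (limma adjusted p = 0.0171) and by 0.67 ± 0.19 at day 7 (limma adjusted p = 0.0318), with both cisplatin groups at 24.67 to 31.08 FPKM and sham at 34.19 to 58.98 FPKM. The day 3 call was lost without day 3 library 2 or 3 (limma adjusted p 0.00696 to 0.0569 over the leave-one-out fits), with nuclear-total scaling (-0.51, limma adjusted p = 0.0578) and with GC content and length removed (-0.39, limma adjusted p = 0.112). Without sham library 2 the log2 fold changes were -0.43 at day 3 and -0.44 at day 7. The day 7 call was lost there and without any day 7 library (limma adjusted p 0.0181 to 0.0876 over the leave-one-out fits), as well as with no filter, nuclear-total scaling, the replicate block, the 6 libraries alone and GC content and length removed (-0.12). Slc25a35, with no established substrate, fell by 0.97 ± 0.16 at day 3 against sham (limma adjusted p = 0.000943), but 31.3% of its exon bases overlap Rangrf on the other strand. Slc25a34 (chromosome 4, 141618824 to 141623821, minus strand), also without an established substrate, had 19.16, 11.14 and 10.35 FPKM in sham kidneys, 10.74, 9.33 and 9.25 FPKM at day 3, and 6.54, 4.77 and 5.13 FPKM at day 7. It was lowest at day 7 in every library, and sham library 1 was far above the other sham libraries. At day 3 against sham it was not called (-0.39, limma adjusted p = 0.152), but it was with median-of-ratios scaling (-0.66, limma adjusted p = 0.019) and quantile normalization (-0.59, limma adjusted p = 0.0355). It fell at day 7 against sham by 1.13 ± 0.22 (limma adjusted p = 0.00643), a call lost only when GC content and length were removed. The log2 fold change was -0.87 without sham library 1. It was also lower at day 7 than at day 3 (-0.74 ± 0.22, limma adjusted p = 0.0177), which was lost without day 3 library 1 or day 7 library 2 or 3 (limma adjusted p 0.00178 to 0.058 over the leave-one-out fits).

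The aspartate/glutamate exchangers, the other arm of the malate-aspartate shuttle, were highest at day 7. Slc25a13, citrin (chromosome 6, 6041218 to 6217173, minus strand), had 10.21, 14.74 and 16.79 FPKM in sham kidneys, 12.80, 11.57 and 6.72 FPKM at day 3, and 26.18, 26.24 and 29.92 FPKM at day 7. Day 7 was above every other library, and day 3 and sham overlapped. Day 3 against sham was not called (-0.41, limma adjusted p = 0.171), though it was with median-of-ratios scaling (-0.68, limma adjusted p = 0.0466) and without sham library 1 and day 3 library 1 (-0.76, limma adjusted p = 0.0235). Day 7 was higher than day 3 by 1.37 ± 0.24 (limma adjusted p = 0.00143) and than sham by 0.96 ± 0.24 (limma adjusted p = 0.0188). The call against sham was lost with GC content and length removed and without day 7 library 3 (limma adjusted p 0.00807 to 0.0627 over the leave-one-out fits).

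Slc25a12, aralar (chromosome 2, 71271063 to 71367749, minus strand), had 6.52, 5.75 and 6.88 FPKM in sham kidneys, 4.29, 4.56 and 3.68 FPKM at day 3, and 8.53, 9.85 and 9.32 FPKM at day 7. The groups did not overlap. It fell by 0.51 ± 0.12 at day 3 against sham (limma adjusted p = 0.00448) and was higher at day 7 than at day 3 by 0.98 ± 0.12 (limma adjusted p = 0.000164). Against sham, day 7 was higher by 0.47 ± 0.12 (limma adjusted p = 0.0165), a call lost without sham library 2 or day 7 library 2 or 3 (limma adjusted p 0.0156 to 0.0649 over the leave-one-out fits), or with GC content and length removed, where the value was 0.10. The glutamate carriers were Slc25a22, not called in any comparison (2.10 to 7.27 FPKM over all libraries), and Slc25a18, below the filter at no more than 0.44 FPKM. Slc25a22 was highest in sham library 1 (7.27 FPKM) and day 3 library 1 (6.85 FPKM). It was called lower at day 7 than at day 3 with the replicate block (-0.65, limma adjusted p = 0.0128) and without sham library 1 (limma adjusted p = 0.0431). Of the enzymes of the same shuttle, the cytosolic malate dehydrogenase Mdh1 fell at day 3 against sham by 1.71 (limma adjusted p = 0.000476) and Mdh2 also fell. The aspartate aminotransferase Got1 rose by 1.06 (limma adjusted p = 0.000797). Over all genes 20.6% fell and 39.3% rose at day 3 against sham. At day 7 against sham 0 of the 4 enzymes were called, against 29.7% of all genes.

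The ornithine carrier Slc25a15 (chromosome 8, 22375551 to 22398597, minus strand), which links matrix ornithine to the urea cycle and polyamine enzymes, had 13.51, 17.04 and 20.24 FPKM in sham kidneys, 10.76, 7.15 and 6.49 FPKM at day 3, and 29.88, 30.80 and 35.66 FPKM at day 7. The groups did not overlap, with day 3 lowest and day 7 highest. It fell by 0.98 ± 0.20 at day 3 against sham (limma adjusted p = 0.00261), was higher at day 7 than in sham by 0.90 ± 0.20 (limma adjusted p = 0.0115), and than at day 3 by 1.88 ± 0.20 (limma adjusted p = 0.000101). The day 7 call against sham was lost only when GC content and length were removed. Its close relative Slc25a2 stayed at or under 0.38 FPKM. Among 5 tested ornithine and urea enzymes, 3 fell (against 20.6% of all genes) and 1 rose (against 39.3%) at day 3 against sham. The argininosuccinate synthase Ass1 fell by 3.75 (limma adjusted p = 1.01e-05) and Asl by 1.33, while the mitochondrial arginase Arg2 rose by 3.09 (limma adjusted p = 0.00198).

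Slc25a44, which carries branched-chain amino acids, had 9.96, 11.92 and 12.11 FPKM in sham kidneys, 11.67, 18.97 and 19.28 FPKM at day 3, and 9.29, 11.27 and 10.86 FPKM at day 7. Day 3 library 1 lay within the sham range and the other day 3 libraries above it. It was not called at day 3 against sham (0.49, limma adjusted p = 0.0505), but was called higher in 7 alternatives, among them without day 3 library 1 (0.71, limma adjusted p = 0.00213), with the replicate block (limma adjusted p = 0.0157) and with nuclear-total scaling (0.63, limma adjusted p = 0.015), while median-of-ratios scaling gave 0.21. It was lower at day 7 than at day 3 (-0.59 ± 0.19, limma adjusted p = 0.0261). That call was lost without day 3 library 2 or 3 or day 7 library 1 or 3 (limma adjusted p 0.00123 to 0.0933 over the leave-one-out fits), with median-of-ratios scaling and with quantile normalization. The basic amino acid carrier Slc25a29 fell by 0.45 at day 3 (limma adjusted p = 0.0231) and 0.51 at day 7 (limma adjusted p = 0.0274) against sham, and the glycine carrier Slc25a38, which supplies heme synthesis, fell by 0.56 at day 3 (limma adjusted p = 0.00691). The Slc25a38 call was lost with GC content and length removed, where the value was -0.27 (limma adjusted p = 0.126). At day 7 every library of Slc25a38 lay below every sham library, but it was not called (-0.41, limma adjusted p = 0.0542). It was called lower there under several alternatives, among them median-of-ratios scaling (limma adjusted p = 0.0352) and quantile normalization (limma adjusted p = 0.0347). Both Slc25a29 calls were among the less stable, with limma adjusted p of 0.013 to 0.0592 at day 3 and 0.0192 to 0.0825 at day 7 over the leave-one-out fits. The first was lost without sham library 1 or any day 3 library, and the second without sham library 1 or 2 or day 7 library 1 or 2. Both were also lost with no filter and with GC content and length removed (-0.21 at day 3, -0.0012 at day 7), and the second with nuclear-total scaling.

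The carnitine-acylcarnitine carrier Slc25a20 (chromosome 9, 108662088 to 108684641, plus strand), the step that admits long-chain fatty acids to oxidation, had 28.38, 13.54 and 12.10 FPKM in sham kidneys, 21.82, 16.86 and 16.17 FPKM at day 3, and 10.67, 9.85 and 8.85 FPKM at day 7. Day 7 was lowest with no overlap, and sham library 1 was the highest of all. It was not called at day 3 (0.11, limma adjusted p = 0.758) or day 7 (-0.72, limma adjusted p = 0.0833) against sham. Without sham library 1 it was called higher at day 3 (0.47, limma adjusted p = 0.0292) and the day 7 value was -0.36, not called (limma adjusted p = 0.123). Day 7 against sham was called lower with median-of-ratios scaling, with the replicate block and without sham library 3. It was lower at day 7 than at day 3 (-0.83 ± 0.28, limma adjusted p = 0.0326), which was lost without any one of the 6 cisplatin libraries (limma adjusted p 0.00141 to 0.0951 over the leave-one-out fits), with no filter and with median-of-ratios scaling. Slc25a45, a relative, had 13.80, 16.37 and 15.47 FPKM in sham kidneys, 9.17, 8.12 and 5.48 FPKM at day 3, and 12.77, 12.13 and 11.94 FPKM at day 7. It was lowest at day 3 with no overlap and fell there against sham by 0.94 ± 0.17 (limma adjusted p = 0.00121). At day 7 it was higher than at day 3 by 0.65 ± 0.17 (limma adjusted p = 0.00895). Slc25a48 was called at day 7 against day 3 (0.78 ± 0.27, limma adjusted p = 0.0346), a call lost without day 3 library 2 or 3 or day 7 library 1 or 3 (limma adjusted p 0.0127 to 0.122 over the leave-one-out fits), with no filter and with the 6 libraries alone. At day 3 against sham Slc25a48 was not called (-0.52, limma adjusted p = 0.123). It was called lower there with median-of-ratios scaling (-0.77, limma adjusted p = 0.0469) and quantile normalization (-0.78, limma adjusted p = 0.0428). The same held without day 3 library 1 (-0.74, limma adjusted p = 0.0406) and without sham library 1 and day 3 library 1 (-0.87, limma adjusted p = 0.0285). Slc25a47 reached 1.85 FPKM at most. Of the 5 other carnitine shuttle genes, the carnitine acetyltransferase Crat and the palmitoyltransferase Cpt2 fell at day 3 against sham by 1.56 (limma adjusted p = 1.08e-05) and 1.14 (limma adjusted p = 0.00838). None of the 5 rose there, and over all genes 20.6% fell and 39.3% rose.

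**Figure D3:**
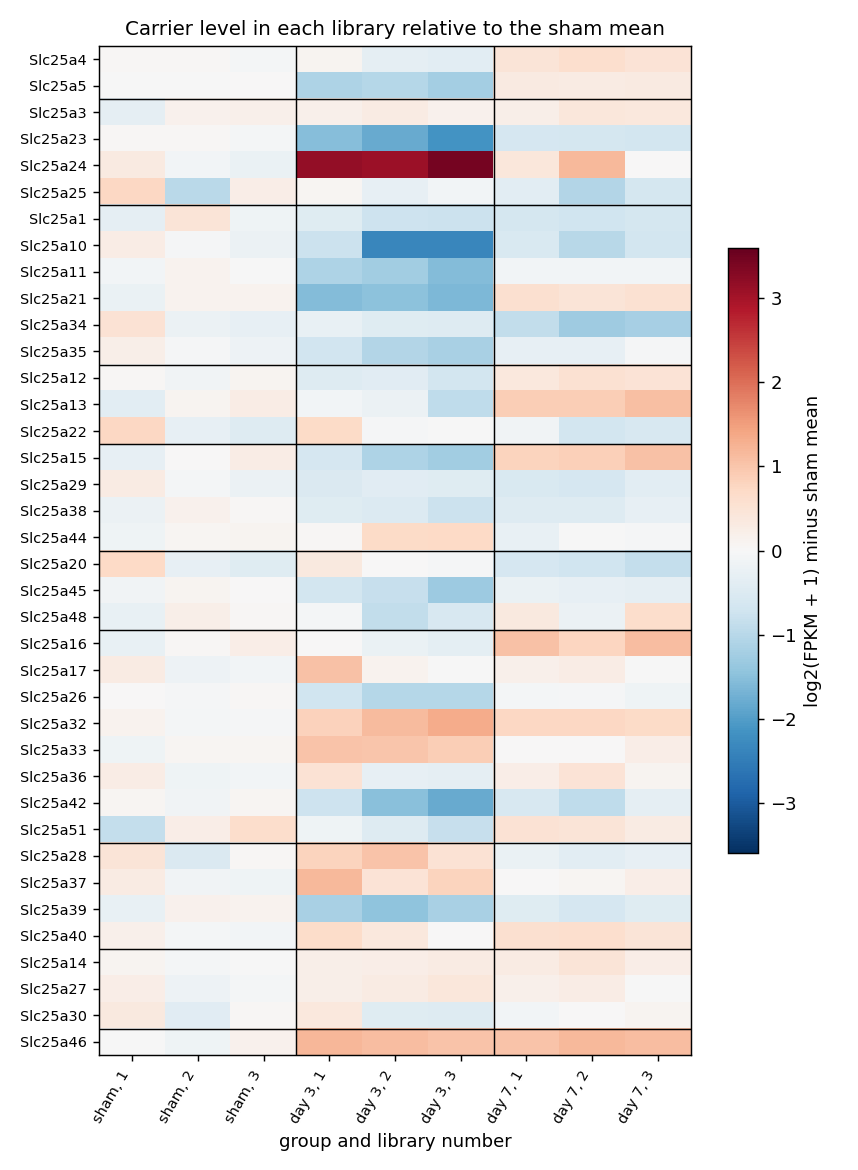
Log2(FPKM + 1) of 38 tested carriers in each of the 9 libraries minus its sham mean, with carriers grouped by substrate between black lines and libraries ordered sham, day 3, day 7. Blue is lower and red higher than the sham mean. At day 3 all columns are deep red for Slc25a24 and blue for Slc25a5, Slc25a23 and Slc25a21, and library 1 is paler than its neighbours for Slc25a10 and Slc25a42.

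Among the 9 cofactor and nucleotide carriers, 2 rose (22.2%, against 39.3% of all genes) and 3 fell (33.3%, against 20.6%) at day 3 against sham, and the 55.6% called lay near the 59.9% of all genes. The coenzyme A carrier Slc25a42 (chromosome 8, 70184340 to 70212305, minus strand) had 14.59, 12.53 and 14.58 FPKM in sham kidneys, 7.95, 4.22 and 3.19 FPKM at day 3, and 8.94, 6.88 and 10.90 FPKM at day 7. Sham was highest with no overlap, and day 3 and day 7 overlapped through day 3 library 1. It fell at day 3 against sham by 1.36 ± 0.27 (limma adjusted p = 0.00226). The log2 fold change was -1.67 without day 3 library 1. Day 7 against sham was not called for Slc25a42 (-0.61, limma adjusted p = 0.12). It was called lower there with the 6 libraries alone (limma adjusted p = 0.0392) and without day 3 library 1 (limma adjusted p = 0.0278). Its call at day 7 against day 3 (0.75 ± 0.27, limma adjusted p = 0.04) was lost when any one sham library, day 3 library 2 or 3, or day 7 library 1 or 3 was left out (limma adjusted p 0.00241 to 0.133 over the leave-one-out fits), with no filter and with the 6 libraries alone. The S-adenosylmethionine carrier Slc25a26, at 0.57 to 0.96 FPKM at day 3 and 2.12 to 2.30 FPKM in sham kidneys, fell by 0.93 ± 0.12 at day 3 against sham (limma adjusted p = 0.000211).

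The folate carrier Slc25a32 (chromosome 15, 39091231 to 39112716, minus strand) had 1.62, 1.28 and 1.36 FPKM in sham kidneys, 3.26, 4.37 and 5.04 FPKM at day 3, and 3.05, 3.05 and 2.86 FPKM at day 7. Both cisplatin groups were above all sham libraries. It rose by 1.10 ± 0.14 at day 3 (limma adjusted p = 0.000219) and by 0.72 ± 0.14 at day 7 (limma adjusted p = 0.00677) against sham, the second call being lost only when GC content and length were removed, where the values were 0.69 at day 3 and 0.10 at day 7. Its call at day 7 against day 3 (-0.38 ± 0.14, limma adjusted p = 0.048) was lost under 14 alternatives, among them each fit without a day 7 library, without sham library 2 or 3, or without day 3 library 2 or 3 (limma adjusted p 0.00628 to 0.163 over the leave-one-out fits). Slc25a33, a pyrimidine nucleotide carrier, rose by 0.96 ± 0.12 at day 3 against sham (limma adjusted p = 0.000156), with 7.57 to 8.42 FPKM at day 3 and 3.18 to 3.92 FPKM in sham kidneys, and was lower at day 7 than at day 3 (-0.87 ± 0.12, limma adjusted p = 0.00031). The other pyrimidine nucleotide carrier, Slc25a36, was not called in any comparison, but without day 3 library 1 it was called higher at day 7 than at day 3 (0.59, limma adjusted p = 0.0184).

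Slc25a16 (chromosome 10, 62920633 to 62946498, plus strand), tied to matrix coenzyme A by work in yeast, had 8.51, 10.74 and 12.38 FPKM in sham kidneys, 10.55, 8.68 and 7.92 FPKM at day 3, and 22.95, 18.67 and 23.92 FPKM at day 7. Day 7 was above every other library, and day 3 and sham overlapped. It was not called at day 3 against sham (-0.19, limma adjusted p = 0.334), though it was called lower with GC content and length removed (-0.44, limma adjusted p = 0.04). It was higher at day 7 than in sham by 0.99 ± 0.17 (limma adjusted p = 0.00374), a call lost only when GC content and length were removed, and than at day 3 by 1.19 ± 0.17 (limma adjusted p = 0.000404). Slc25a17, found on peroxisomes, had 35.10, 24.85 and 26.82 FPKM in sham kidneys, 61.02, 31.23 and 28.45 FPKM at day 3, and 32.44, 34.38 and 28.52 FPKM at day 7, and was not called in any comparison. Day 3 library 1 stood far above the other day 3 libraries, and all groups overlapped. The NAD carrier Slc25a51 had 9.70, 21.52 and 28.67 FPKM in sham kidneys, 16.28, 12.87 and 9.89 FPKM at day 3, and 26.82, 25.76 and 22.82 FPKM at day 7. Its sham libraries spanned the range of both other groups. It was not called at day 3 against sham (-0.48, limma adjusted p = 0.244), but without sham library 1 it was called lower (-0.91, limma adjusted p = 0.0066). It was called at day 7 against day 3 (0.92 ± 0.34, limma adjusted p = 0.0448), which was lost without sham library 2, day 3 library 2 or 3, or any day 7 library (limma adjusted p 0.00379 to 0.138 over the leave-one-out fits), and with no filter, the replicate block, or GC content and length removed.

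The iron and glutathione carriers split at day 3. Slc25a39 (chromosome 11, 102402985 to 102407946, minus strand), required for mitochondrial glutathione import, had 76.14, 101.78 and 100.41 FPKM in sham kidneys, 40.48, 33.13 and 40.72 FPKM at day 3, and 67.19, 59.74 and 67.82 FPKM at day 7. Day 3 was lowest and sham highest, with no overlap. It fell by 1.26 ± 0.15 at day 3 (limma adjusted p = 0.000126) and by 0.50 ± 0.15 at day 7 (limma adjusted p = 0.0322) against sham, and was higher at day 7 than at day 3 by 0.76 ± 0.15 (limma adjusted p = 0.00222). With GC content and length removed the day 7 difference from sham was 0.046 and not called, and the call was also lost without sham library 2 or 3 or any day 7 library (limma adjusted p 0.0116 to 0.108 over the leave-one-out fits), with no filter, with quantile normalization and with nuclear-total scaling (-0.29). Its sister Slc25a40 was called only at day 7 against sham (0.55, limma adjusted p = 0.0385). That call was lost without sham library 2 or 3, day 3 library 2 or any day 7 library (limma adjusted p 0.0199 to 0.113 over the leave-one-out fits), with no filter and with quantile normalization, and the value was -0.048 with GC content and length removed.

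The mitoferrins, which import iron for heme and iron-sulfur clusters, rose at day 3. Slc25a28, mitoferrin 2 (chromosome 19, 43663801 to 43674881, minus strand), had 14.72, 7.08 and 10.91 FPKM in sham kidneys, 18.91, 22.37 and 15.39 FPKM at day 3, and 8.78, 7.74 and 8.28 FPKM at day 7. Day 3 was above all other libraries, and day 7 lay within the sham range. It rose by 0.78 ± 0.23 at day 3 against sham (limma adjusted p = 0.0177), a call lost with median-of-ratios scaling and without day 3 library 2 (limma adjusted p 0.00356 to 0.0652 over the leave-one-out fits), and was lower at day 7 than at day 3 (-1.09 ± 0.23, limma adjusted p = 0.00382). Slc25a37, mitoferrin 1, the form best known from red cell precursors, had 5.76 to 8.15 FPKM in sham kidneys, 9.60 to 16.01 at day 3 and 6.63 to 7.84 at day 7, and rose by 0.82 ± 0.19 at day 3 against sham (limma adjusted p = 0.00536). Its log2 fold change was 0.64 without day 3 library 1. The 3 red cell markers summed to 58.6 to 77.2 FPKM in sham, 2.56 to 7.89 FPKM at day 3 and 11.9 to 204 FPKM at day 7. The part of red cells or their precursors in the level of Slc25a37 was not tested. Of 11 heme and iron-sulfur genes in the matrix, 2 rose (against 39.3% of all genes) and 3 fell (against 20.6%) at day 3 against sham.

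None of the 3 uncoupling-like carriers, relatives of the uncoupling proteins by sequence, was called at day 3 against sham. Slc25a30, a carrier first described in kidney, had 32.91, 18.95 and 26.22 FPKM in sham kidneys, 33.24, 18.60 and 18.13 FPKM at day 3, and 23.81, 25.49 and 27.00 FPKM at day 7, with all groups overlapping. Slc25a14 had 1.71, 1.43 and 1.53 FPKM in sham kidneys, 1.98, 2.04 and 2.11 FPKM at day 3, and 2.12, 2.50 and 2.03 FPKM at day 7. Both cisplatin groups lay just above sham, and the call at day 7 (0.33, limma adjusted p = 0.0428) was lost in 7 of the 9 leave-one-out fits (limma adjusted p 0.0399 to 0.133 over the leave-one-out fits), those without sham library 2 or 3, day 3 library 2 or 3, or any day 7 library, and under 6 other settings. Slc25a27 was not called in any comparison. At day 3 against sham it was called higher with nuclear-total scaling (0.37, limma adjusted p = 0.0443) and with GC content and length removed (0.40, limma adjusted p = 0.0439). The same held without sham library 1, alone (0.42, limma adjusted p = 0.0213) or with day 3 library 1. Slc25a14 was called higher at day 3 against sham with nuclear-total scaling (0.35, limma adjusted p = 0.0265) and with GC content and length removed (0.30, limma adjusted p = 0.0365).

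Slc25a46 (chromosome 18, 31556111 to 31609911, minus strand) differs from the rest in sitting in the outer membrane, where it works with the fusion and fission machinery rather than in transport. It had 4.71, 4.20 and 5.39 FPKM in sham kidneys, 12.28, 11.47 and 10.73 FPKM at day 3, and 10.76, 11.91 and 11.36 FPKM at day 7. Both cisplatin groups were above all sham libraries and overlapped each other. It rose by 1.12 ± 0.11 at day 3 (limma adjusted p = 6.06e-05) and by 1.10 ± 0.11 at day 7 (limma adjusted p = 0.00128) against sham. It was the only carrier whose day 7 call against sham was kept in every alternative run, and its values were 0.74 at day 3 and 0.54 at day 7 with GC content and length removed. Day 7 against day 3 was not called (-0.02, limma adjusted p = 0.91). Of 3 partners in mitochondrial fusion, none was called at day 3 against sham (59.9% of all genes were). Opa1 and Mfn1 were higher at day 7 than in sham (19.3% of all genes were), by 0.89 (limma adjusted p = 0.00184) and 0.66 (limma adjusted p = 0.00736). Slc25a43 and Slc25a53, with no established substrate, stayed at or below 0.67 and 0.40 FPKM.

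Mitochondrial carriers outside the naming rule, such as the uncoupling proteins and the pyruvate carrier, were read in the same fit. Of 8 that were tested, 5 were lower (against 20.6% of all genes) and 0 higher (against 39.3%) at day 3 against sham. Among them were both subunits of the pyruvate carrier, Mpc1 (-0.82, limma adjusted p = 0.00285) and Mpc2 (-0.71, limma adjusted p = 0.00229), and the serine carrier Sfxn1 (-1.10, limma adjusted p = 0.00178). Of 13 genes of the machinery that imports carrier proteins, 3 rose and 2 fell at day 3, and 4 rose and 3 fell at day 7. Over all genes 39.3% rose and 20.6% fell at day 3, and 19.3% rose and 10.4% fell at day 7, each against sham. Tomm70a, the receptor for carrier precursors, rose by 0.88 at day 3 (limma adjusted p = 0.000105) and 0.84 at day 7 (limma adjusted p = 0.00152) against sham, and Timm8a1, a small chaperone of the intermembrane space, by 0.73 (limma adjusted p = 0.000827) and 0.79 (limma adjusted p = 0.00276). Among the 3 that fell at day 7 against sham was Timm13 (-0.71, limma adjusted p = 0.00426). Timm29 of this list was listed at 0 in sham library 3 against 14.78 and 16.82 FPKM in the other sham libraries.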

How the data were processed

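Per the labels' protocols, total RNA was isolated with TRIzol, samples had an integrity number above 7.0, and a directional NEB kit was sequenced on an Illumina HiSeq. The authors deposited FPKM per gene, 1 table per library, rounded to 2 decimals. The submitters' processing notes name HISAT, StringTie, FastQC 0.10.1 and GRCm38, with no role or order. How reads were aligned, filtered and assigned to strands, and with which annotation, is not stated there, so overlapping genes on opposite strands cannot be told apart. FPKM hold no counts, so depth is unknown, no counting interval is given, and 0 means only listed at 0.

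Gene IDs were matched to GENCODE M21 (GRCm38), which gave a symbol for 55144 of 55385. The 13718 genes that reached 1 FPKM in 3 or more of the 9 libraries were tested. A limma 3.58.1 model (R 4.3.3) of log2(FPKM + 1), which understates changes of low genes, was fitted to all 9 libraries with eBayes and a mean-variance trend. Its 3 two-sided contrasts were adjusted by Benjamini-Hochberg over all tested genes at 0.05. Errors of fold changes are limma standard errors. The fit was also run on simulated data with independent normal noise and changes planted only in genes with a high sham level. That run does not cover carriers of low level or libraries that stand apart.

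The members, gene lists, tests and alternatives were chosen with earlier results of these data known. Values in every library are given for the 2 most abundant carriers of each substrate group and every carrier called with at least a 2-fold change, and the rest by ranges and counts. From other lists, up to 3 called genes per comparison by size of change were eligible, beside the cell markers. Slc25a52, a listed carrier, is not analysed here, and of the genes the rule names 1 carrier and 2 others are not reported here, though all counts include them. Other settings tried were no filter, a 5 FPKM filter, a pseudocount of 0.1, 3 other scalings (median of ratios, quantiles, nuclear-encoded total), robust variance, the 6 libraries of a comparison alone, the replicate number as a block, removal of GC content and length by splines with 5 degrees of freedom in each library (13707 genes), protein-coding genes only, and leaving out each library. Leaving out sham library 1 and day 3 library 1 together was chosen after seeing the data. Promoters are from RefSeq (GRCm38.p6).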

Additional observations from a re-analysis of the deposited data

Results flagged for a closer look

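For 26 carriers (66.7%, against 55.4% of all genes), 25 of which are given here, the response to cisplatin differed between its times. They were called by the limma contrast of day 7 against day 3 after Benjamini-Hochberg adjustment across the 13718 genes. Values are log2 fold changes, positive where day 7 was higher. Among the nucleotide and phosphate exchangers they were 0.73 for Slc25a4, 1.43 for Slc25a5, 1.19 for Slc25a23 and -2.72 for Slc25a24. In the group placed with the carboxylate carriers they were 1.10 for Slc25a10, 1.22 for Slc25a11, 2.09 for Slc25a21, 0.76 for Slc25a35 and -0.74 for Slc25a34. The amino acid carriers had 0.98 for Slc25a12, 1.37 for Slc25a13, 1.88 for Slc25a15 and -0.59 for Slc25a44. The carnitine group had 0.65 for Slc25a45, 0.78 for Slc25a48 and -0.83 for Slc25a20. The cofactor and nucleotide carriers had 1.19 for Slc25a16, 0.85 for Slc25a26, 0.75 for Slc25a42, 0.92 for Slc25a51, -0.38 for Slc25a32 and -0.87 for Slc25a33. The iron and glutathione carriers had 0.76 for Slc25a39, -1.09 for Slc25a28 and -0.72 for Slc25a37. Of these calls, 8 were lost under at least 1 alternative: Slc25a10, Slc25a20, Slc25a32, Slc25a34, Slc25a42, Slc25a44, Slc25a48 and Slc25a51.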

How the results depend on the processing

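Of the calls on single carriers, 18 of 22 at day 3 against sham, 1 of 16 at day 7 against sham and 18 of 26 at day 7 against day 3 held under every alternative run. Of the comparisons on single carriers that were not called, 11 of 17, 7 of 23 and 4 of 13, in the same order, were called in at least 1 alternative. The counts of called carriers at day 3 against sham and at day 7 against day 3 stayed within 1.5 times the reported ones throughout. Leaving out each library gave 19 to 24 and 18 to 26 calls, with 51.5% to 60.4% and 45.2% to 58% of all genes called. At day 7 against sham, where 16 were called, leaving out each library gave 7 to 19, with 18.2% to 35.8% of all genes called. In that comparison, leaving out sham library 1 and day 3 library 1 together, chosen after seeing the data, gave 20, with 36.9% of all genes called. No filter gave 10 calls there (8 higher, 2 lower), with 9.48% of 32394 genes called. Removal of GC content and length gave 3 calls (3 higher, 0 lower), with 6.24% of genes called, and the cause was not tested. That removal also turned the sign of Slc25a39 to 0.046 and of Slc25a40 to -0.048 in this comparison, neither being called. None of the 3 scalings reversed a called carrier, but they moved the balance: scaling to the nuclear-encoded total gave 9 higher and 15 lower at day 3 against sham, against 6 and 16 as reported, while 43.9% of all genes were higher and 16.6% lower. Labels number the libraries of each group alike. Correlations of same-numbered libraries' deviations from group means ran from -0.05 to 0.24 (median 0.03), and those of different-numbered libraries from -0.28 to 0.11 (median -0.04). The 3 highest of all 27 correlations were between same-numbered libraries. A library's best match in another group had its own number in 9 of 18 cases. The main fit used the numbers as names only, and whether same-numbered libraries were handled together was not tested. With the replicate number as a block, 23 carriers were called at day 3 against sham, 14 at day 7 against sham and 25 at day 7 against day 3. Over all genes 59.9%, 28.3% and 55% were called in that fit, in the same order. Unknown depth leaves the precision of carriers near or below 1 FPKM unstated, among them Slc25a21 at day 3, which was well below it.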

Other observations

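Enzymes that work on the substrates of the carriers give further values. Over all genes 39.3% rose and 20.6% fell at day 3 against sham, and 19.3% rose and 10.4% fell at day 7 against sham. These shares stand beside every count in this section. Of 5 genes of citrate export and lipid synthesis, 3 fell and 0 rose at day 3 against sham, among them the acetyl-CoA synthetase Acss2 by 2.31 on the log2 scale (limma adjusted p = 1.35e-05). At day 7 against sham the ATP citrate lyase Acly was higher by 0.45 (limma adjusted p = 0.0303). Of 5 tested genes of mitochondrial one-carbon metabolism, the serine hydroxymethyltransferase Shmt2 fell at day 3 against sham by 2.43 (limma adjusted p = 1.01e-05) and the formyltetrahydrofolate synthetase Mthfd1l rose by 1.43 (limma adjusted p = 6.04e-05).

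Of 10 kinases and transferases that make cofactors, 3 fell and 0 rose at day 3 against sham. Among them were Pank1 and Coasy of coenzyme A synthesis, by 2.15 (limma adjusted p = 0.000371) and 0.89 (limma adjusted p = 0.0041). The methionine adenosyltransferase Mat2a was higher at day 7 than in sham by 1.14 (limma adjusted p = 0.0176). Of 7 partners in energy exchange, 3 fell at day 3 against sham, among them the outer membrane channel Vdac1 by 0.88 (limma adjusted p = 0.00102) and the adenylate kinase Ak4 by 1.79 (limma adjusted p = 0.00613). Uncoupling protein Ucp2, a carrier outside the naming rule, had 68.05, 28.55 and 27.87 FPKM at day 3 and 36.08, 11.81 and 10.60 FPKM in sham. The highest library of each group was library 1, and the difference was not called (1.14, limma adjusted p = 0.0647).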
